A study of Mus musculus with 4 samples.

Results

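The transitional epithelial state genes are 10 genes known to mark an intermediate state of the lung epithelium: Krt7, Krt8, Krt18, Krt19, Cldn4, Sfn, Lgals3, Cdkn1a, Itgb6 and Clu. They were chosen by name, and are 10 of the 27340 genes named on the array. All 10 were found under their current symbol, on 16 probes and 25 spots, and all 16 probes were well above background on all 4 arrays. The cells were alveolar type II cells (AT-II, the surfactant-making cells of the alveolus) sorted by flow cytometry from lungs labelled female. The 4 groups were wild-type (WT) mice without tumor, WT mice with Lewis lung carcinoma, Tlr3-deficient (Tlr3-/-) mice without tumor, and Tlr3-deficient mice with the same tumor. Lewis lung carcinoma is a mouse lung cancer line, here placed under the skin, and lungs were taken 2 weeks later. The product of Tlr3 is an innate sensor of double-stranded RNA. The design asks how AT-II gene expression differs with a distant tumor and whether that difference depends on Tlr3. Each group is 1 array, so differences describe a pair of arrays, with neither replicates nor p-values. Strain, age and the number of mice behind an array are not given in the sources used here.

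When alveolar type I cells (AT-I, the flat gas-exchange cells) are lost, AT-II cells divide and flatten into new AT-I cells. On the way they are known to pass through a transitional state rich in simple-epithelial keratins, tight junction and stress genes, with p53 and TGF-beta signalling among its known features. In injured lungs this state is known to accumulate when differentiation stalls. Several of these genes are also made by other lung epithelia, so their level in a sorted bulk sample is not specific to one state.

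The array is printed with 60-base probes, and their place in a transcript sets what each one reads. The probes shown here are from the 3 members whose probes stood apart in brightness: the second probe of Krt7 (A_52_P410685, chr15:101253718-101253777, plus strand), probes 1 and 3 of Itgb6 (A_51_P161054, chr2:60438632-60443247, and A_52_P93974, chr2:60492788-60492847, both minus strand), and probes 1 and 3 of Sfn (A_52_P334188, chr4:133156999-133157058, and A_52_P334191, chr4:133157200-133157259, both minus strand). Coordinates come from the array's own annotation (mm9), and no exon annotation of that build was used here.
Krt7 probe 2: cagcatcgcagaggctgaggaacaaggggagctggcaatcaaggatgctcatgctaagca
Itgb6 probe 1: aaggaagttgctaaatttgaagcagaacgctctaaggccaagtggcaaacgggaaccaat
Itgb6 probe 3: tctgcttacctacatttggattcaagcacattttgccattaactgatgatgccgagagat
Sfn probe 1: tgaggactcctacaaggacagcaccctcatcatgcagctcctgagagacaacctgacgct
Sfn probe 3: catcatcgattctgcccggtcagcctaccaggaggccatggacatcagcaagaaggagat
The 60 bases of Itgb6 probe 1 map across 4616 genomic bases, so this probe reads spliced RNA over a junction. The brightest Krt7 probe (A_51_P312348, chr15:101258172-101258231, plus strand) lies downstream of the one shown.

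Levels are log2 processed intensity minus the array's 75th percentile, so 0 is the brightness that 75% of gene spots do not exceed. A gene is given by its brightest probe, and levels are compared only between arrays, not between genes. The 75th percentile of intensity was 555 to 904 on the 4 arrays, 61.0% to 65.4% of gene spots were well above background, and no spot was saturated. The arrays lay on 3 slides, and within every comparison here the arrays lay on different slides, which means that slide and group cannot be told apart. The brighter Tlr3 probe read -3.93 and -3.94 on the WT arrays without and with tumor, and -5.45 and -5.30 on the Tlr3-deficient ones. Of 4 Y-linked genes checked, all were well above background on 1 array, Tlr3-deficient without tumor, and 0 on the other arrays, although all are labelled female. That array enters 3 of the results below, and the part of this difference in them was not tested. All 14 AT-II markers were well above background on all arrays, with Sftpc (surfactant protein C) at 8.84, 9.30, 9.39 and 9.03. Other cell types were read too: Scgb1a1, the club cell secretory protein, lay at 8.66 to 9.32.

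In tumor-bearing WT mice, no transitional gene differed 2-fold. In tumor-bearing Tlr3-deficient mice, Krt7 was 2.79-fold and Itgb6 2.02-fold lower than without tumor, and 8 of the 10 genes lay lower at any size, one of them, Sfn, at -0.00 and above 0 with at least 1 alternative. Of all genes tested in that comparison, 48.9% were higher at any size. Among all genes tested, meaning those well above background on either array, 7.23% of 17824 differed 2-fold in WT (5.67% higher, 1.57% lower) and 8.43% of 18001 in Tlr3-deficient cells (4.52% higher, 3.91% lower). The median difference over the 10 genes was -0.05 in WT, where the median of all tested genes was 0.00, and -0.34 in Tlr3-deficient cells, where it was -0.01. Over the alternative processings the first ranged from -0.22 to 0.04 and the second from -0.43 to -0.32. Of the 16 probes, 11 were lower with tumor in WT and 14 in Tlr3-deficient cells.

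**Figure D1:**
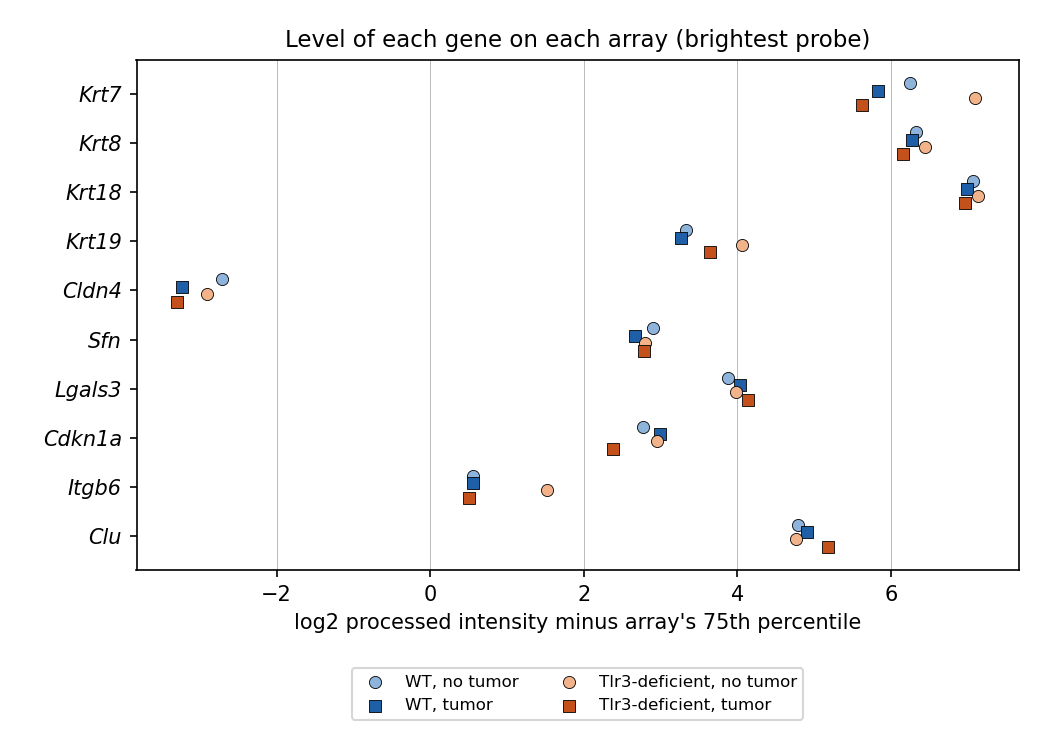
Level of each of the 10 genes on each of the 4 arrays, in log2 processed intensity minus the array's 75th percentile, at the brightest probe (circles without tumor, squares with tumor, blue WT, orange Tlr3-deficient). Krt7 (7.10) and Itgb6 (1.52) stand to the right on the Tlr3-deficient array without tumor, while Krt18 spans 0.18 over all arrays.

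The 4 keratins come first. Keratins form intermediate filaments as pairs of a type I and a type II chain, and Krt8 with Krt18 is the pair of simple epithelia. Krt18 read 7.07 in WT without tumor, 6.99 in WT with tumor, 7.14 in Tlr3-deficient without tumor and 6.97 in Tlr3-deficient with tumor, a range of 0.18. Krt8, its partner, read 6.33, 6.28, 6.45 and 6.16 in that order, which is kept below. In Tlr3-deficient cells both were at their highest without tumor and at their lowest with tumor, apart by less than 0.30 on the log2 scale. The tumor differences of Krt8 were -0.05 in WT and -0.29 in Tlr3-deficient cells at its brighter probe, and 0.02 and -0.63 at its second. For scale, the scanner's own error model gave 0.204 to 0.240 for a log2 difference of a member probe, which covers the spot and not the animal. The WT difference of Krt8 therefore lay within that error at both probes.

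Krt7, a type II keratin of simple and ductal epithelia, varied most of the 10 genes. It read 6.25, 5.84, 7.10 and 5.62. The Tlr3-deficient array without tumor stood above the other 3, which together spanned 0.62 against 1.48 with it. The tumor difference was -0.41 in WT and -1.48 in Tlr3-deficient cells, and the Tlr3-deficient one was as low or lower in 2.86% of all genes tested. Its second probe, shown above, read 2.82, 2.30, 3.40 and 2.33, with tumor differences of -0.52 and -1.07. At both probes Tlr3-deficient was higher than WT without tumor, by 0.85 at the first and 0.58 at the second. With tumor, the genotypes differed by -0.22 and 0.03 at these probes, the first just past the scanner error and the second within it.

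Krt19, the small type I keratin without a tail domain, read 3.33, 3.27, 4.07 and 3.64. It was higher on both Tlr3-deficient arrays than on both WT arrays, by 0.74 without tumor and 0.38 with tumor. Its tumor difference was -0.06 in WT and -0.42 in Tlr3-deficient cells. Neither comparison of genotypes reached 2-fold. Its probe has 1 spot, in columns 1 to 51 of the array. There the genotype difference without tumor varied more between spots of repeatedly printed probes (SD 0.346) than in columns 52 to 85 (SD 0.131).

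Other keratins, among them those of stratified and basal epithelium, were measured beside them. Of 9 other keratins tested, 4 exceeded 2-fold on the WT array with tumor: Krt5 was higher by 1.42, Krt14 by 1.28, Krt15 by 1.77 and Krt17 by 1.24 on the log2 scale. With tumor, the same 4 were lower in Tlr3-deficient than in WT cells, by log2 differences of -1.90, -2.26, -1.60 and -1.83. Krt14 (-1.80) and Krt20 (at least 2.03-fold lower, a bound, because it was not well above background with tumor) were lower with tumor in Tlr3-deficient cells. These differences kept their sign under the alternatives that could measure them. The WT tumor differences of Krt14 (0.57) and Krt17 (0.88) fell under 2-fold with normexp background correction, and Krt20 did so with normexp and quantile normalization. Krt14 was dim but above background, at -3.68, -2.40, -2.85 and -4.65. Krt79, listed with the alveolar macrophage markers and not among these 9, was at least 4.15-fold higher with tumor in Tlr3-deficient cells (0.73 on the log2 scale with normexp). Krt5, Krt14 and Krt15 are also basal cell markers, of which 4 of 5 were higher in WT with tumor, with Trp63 (1.22), the transcription factor of basal cells, as the only one outside the keratins. Trp63 fell under 2-fold with quantile normalization, normexp (to as little as 0.31 over the alternatives) and the mean of all probes, and with normexp Krt14 did too. Trp63 was also dim, at -4.10, -2.88, -4.36 and -3.69. All 5 basal markers were highest on the WT tumor array, and their summed linear level was 1.68, 4.82, 1.86 and 1.52. On that array Krt7, Krt8, Krt18 and Krt19 lay -0.41 to -0.05 from WT without tumor. Krt8 (0.12) and Krt19 (0.04) changed sign with quantile normalization, and their highest values over all alternatives were 0.15 and 0.06.

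**Figure D2:**
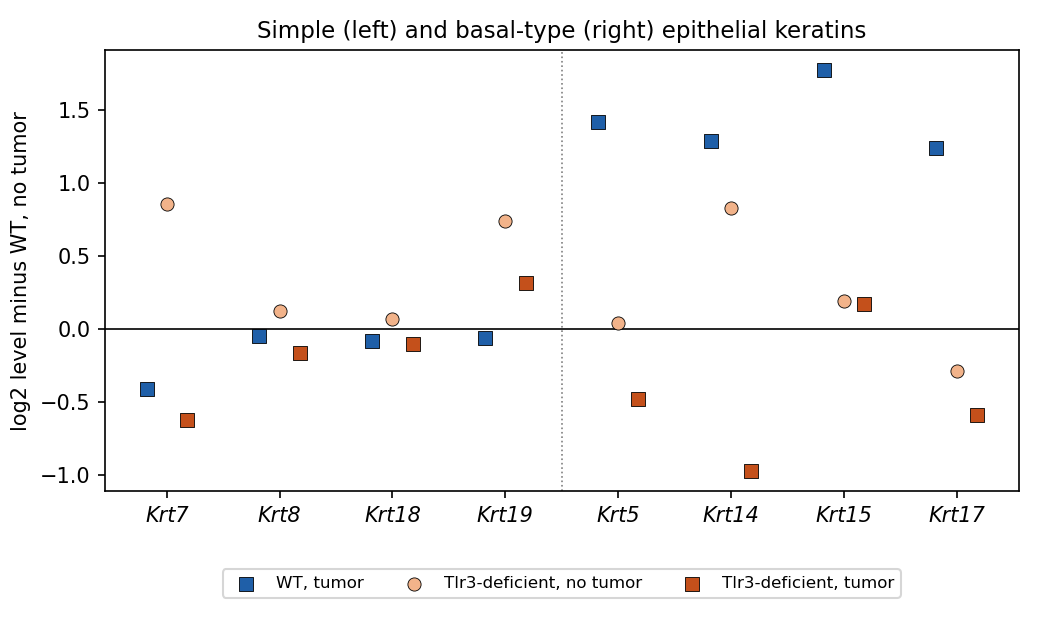
Log2 level of 8 keratins on 3 arrays minus that on the WT array without tumor (squares with tumor, circles without tumor, blue WT, orange Tlr3-deficient). Krt5, Krt14, Krt15 and Krt17 lie between 1.24 and 1.77 on the WT tumor array. There, Krt7, Krt8, Krt18 and Krt19 lie between -0.41 and -0.05 (Krt8 up to 0.15 and Krt19 up to 0.06 over the alternatives).

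Itgb6 encodes the beta chain of the epithelial integrin alpha-v beta-6, which activates latent TGF-beta. It read 0.56, 0.56, 1.52 and 0.50 at its brightest probe. The values on 3 arrays spanned 0.06, and the Tlr3-deficient array without tumor stood 0.96 above WT without tumor. The tumor difference was -0.00 in WT and -1.02 in Tlr3-deficient cells, and 4.85% of tested genes were as low or lower in the latter. The second probe read -0.40, -0.30, 0.43 and -0.42, and the last, which lies upstream in the gene, read -3.21, -3.42, -2.65 and -3.39. On all 3 probes the Tlr3-deficient array without tumor was highest, and the Tlr3-deficient tumor differences were -1.02, -0.84 and -0.74. The call of Itgb6 rests on the brightest probe: the mean of its probes gave -0.87 and normexp background correction -0.92, both under 2-fold.

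Most other genes of TGF-beta activation and response differed less than 2-fold with tumor, and in Tlr3-deficient cells they leaned lower. Of 17 tested, 0 differed 2-fold with tumor in WT, where Tgfbr2, the type II receptor and the gene of the list with the highest mean over the 4 arrays, read 4.03 and 3.84. In Tlr3-deficient cells 1 was higher and 1 lower with tumor. Tgfb2, one of the ligands, read -1.40, -2.19, 0.17 and -1.73, a tumor difference of -1.89. Tgfbi, a TGF-beta-induced matrix protein, read 3.05, 3.03, 1.85 and 3.69, a tumor difference of 1.84. Both stood apart on the Tlr3-deficient array without tumor, in opposite directions, by 1.56 and -1.20 (Tgfbi -0.97 with normexp) against WT without tumor. The median of the list was -0.02 in WT and -0.34 in Tlr3-deficient cells, where the median of all tested genes was -0.01. Of the 17, 9 (52.9%) were highest on the Tlr3-deficient array without tumor. Among all genes well above background on all arrays, 22.5% were. Among the 6 other beta integrins tested, Itgb7, the leukocyte integrin chain, was higher with tumor in both genotypes (1.45 and 2.15, the first 0.73 with normexp), and Itgb3 was lower in Tlr3-deficient cells (-1.22). Itgb3 is less sure, since the mean of its probes put this difference under 2-fold.

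**Figure D3:**
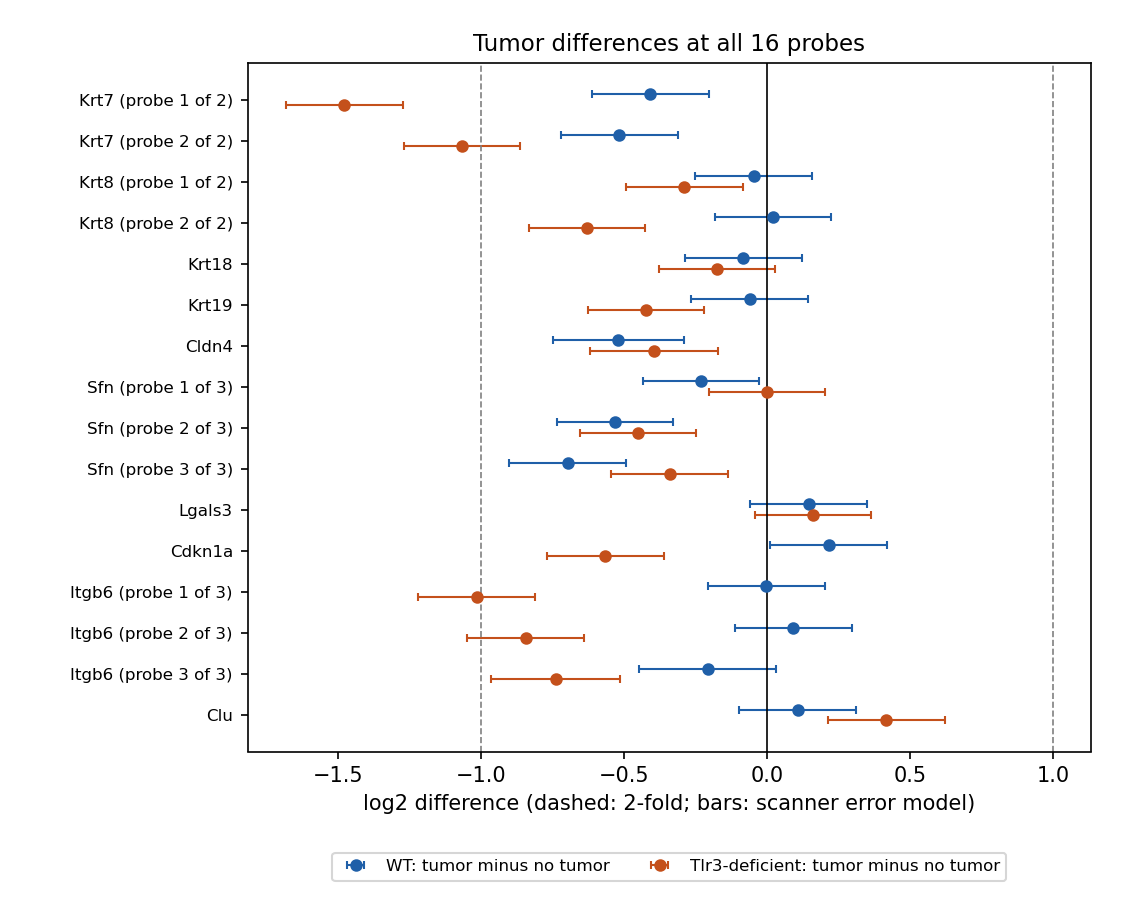
Log2 tumor difference at each of the 16 probes in WT (blue) and Tlr3-deficient cells (orange); bars are the scanner's error model for a difference and cover the spots only, and dashed lines mark 2-fold. The Krt7 probes lie at -1.48 and -1.07 and the Itgb6 probes at -1.02, -0.84 and -0.74 in Tlr3-deficient cells, against -0.52 to 0.09 in WT.

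Cdkn1a encodes p21, a cyclin-dependent kinase inhibitor and a p53 target. It read 2.78, 2.99, 2.95 and 2.39, so the Tlr3-deficient array with tumor was lowest. Its single probe (chr17:29237377-29237436, plus strand) was printed at 10 spots, which gives it the best measured spread of spots among the members. The Tlr3-deficient tumor difference was -0.57 ± 0.02 (SD, n = 10 spots), from -0.59 to -0.52. With tumor, Tlr3-deficient cells were lower than WT by 0.61 ± 0.04 (SD, n = 9 spots; the signed mean was -0.61). Both differences were many times the spread of spots, and neither reached 2-fold. That spread covers repeat spots on 1 array per group and not the animal. The scanner error of each difference was 0.204. The WT tumor difference averaged 0.23 ± 0.39 (SD, n = 9 spots), from -0.29 to 0.87, so it was within the spread of spots.

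The spread came from the WT array without tumor. There, the 6 Cdkn1a spots in columns 1 to 51 ranged from 2.09 to 3.27 with an SD of 0.44, and the 4 spots in columns 52 to 85 from 2.90 to 3.07 with an SD of 0.08. In columns 52 to 85 alone the WT tumor difference was -0.01 ± 0.07 over spots usable on both arrays (SD, n = 3 spots), and 0.010 between the means of all usable spots, and the Tlr3-deficient one stayed at -0.57 ± 0.01 (SD, n = 4 spots). Over all probes printed repeatedly, the SD of the WT tumor difference between spots was 0.341 in columns 1 to 51 and 0.118 in columns 52 to 85. For the Tlr3-deficient tumor difference it was 0.107 and 0.110. The brightest probes of Krt19, Cldn4, Lgals3 and Clu lie in columns 1 to 51, and those of Krt7, Krt8, Krt18, Sfn and Itgb6 in columns 52 to 85.

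**Figure D4:**
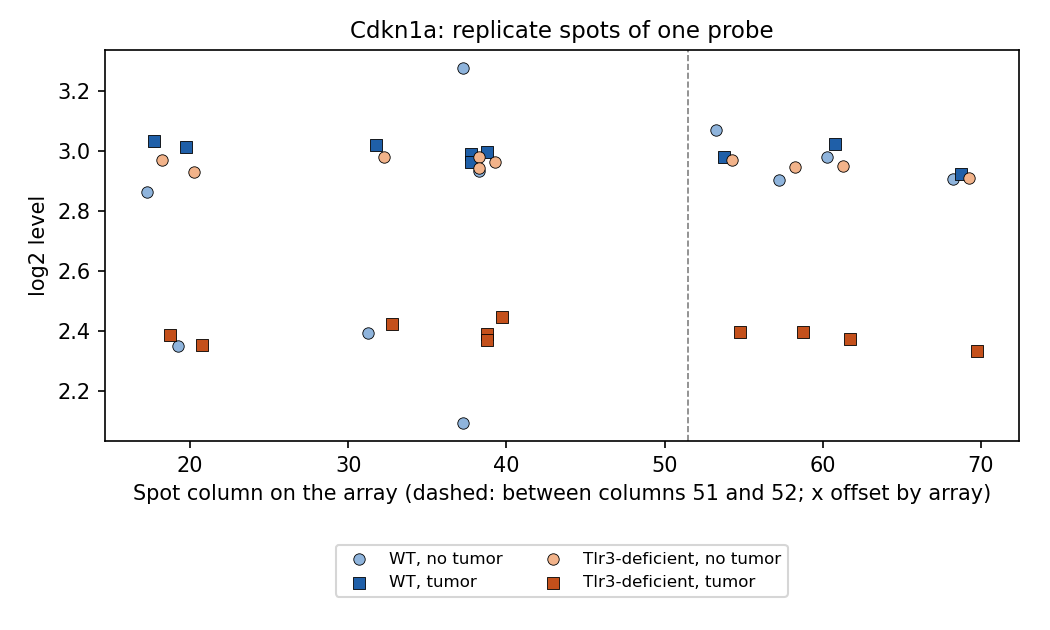
Log2 level of each usable Cdkn1a spot against its column on the array, for the 4 arrays (circles without tumor, squares with tumor, blue WT, orange Tlr3-deficient). The WT spots without tumor range from 2.09 to 3.27 left of the dashed line, and the Tlr3-deficient tumor spots lie between 2.33 and 2.45 over the whole array.

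None of the 18 p53 target genes tested differed 2-fold in any comparison of 2 arrays. Their median tumor difference was -0.23 in WT and 0.00 in Tlr3-deficient cells. The brightest, Btg2, an antiproliferative gene, read 4.75, 4.84, 4.87 and 4.88. Among 5 other cyclin-dependent kinase inhibitors tested, Cdkn2b (p15) was lower with tumor in Tlr3-deficient cells by 2.01-fold, and just under 2-fold with normexp (-0.99 on the log2 scale). The WT tumor difference of Cdkn2b was -0.30.

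Sfn encodes 14-3-3 sigma, an epithelial adaptor protein and p53 target. Its brightest probe read 2.90, 2.67, 2.79 and 2.79, and the tumor differences were -0.23 in WT and -0.00 in Tlr3-deficient cells. The other probes gave -0.53 and -0.70 in WT, and -0.45 and -0.34 in Tlr3-deficient cells. The 3 probes thus differed in size, and the brightest read the same on both Tlr3-deficient arrays to 2 decimals. None of the 6 other 14-3-3 genes differed 2-fold in any comparison, and the brightest, Ywhah, read 4.89, 4.35, 5.12 and 4.58.

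Cldn4, a claudin of the tight junction that rises in stressed alveolar epithelium, was dim but above background. It read -2.71, -3.23, -2.91 and -3.30. Both tumor arrays were lower than both arrays without tumor, by 0.52 in WT and 0.40 in Tlr3-deficient cells, and with normexp the WT difference was -0.23, no larger than about the scanner error of 0.229 for this probe. Before scaling, its intensity was 84.6 on both WT arrays, and 101 and 91.6 on the Tlr3-deficient ones. The WT difference is therefore that of the 75th percentiles used for scaling, 555 without and 796 with tumor. Of all tested genes, 7.98% and 16.99% were as low or lower in these comparisons. Of 11 other claudins tested, Cldn9 (1.06) was higher with tumor in WT, and 0 differed 2-fold with tumor in Tlr3-deficient cells. Cldn9 fell under 2-fold with 4 of the alternatives. Cldn18, the claudin of alveolar epithelium, read 5.21, 5.14, 5.19 and 4.87.

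Lgals3 encodes galectin-3, a sugar-binding protein of epithelial cells and macrophages, and Clu encodes clusterin, a secreted chaperone. Both were higher with tumor in both genotypes at any size, though in WT the sign changed with median centring (-0.00 for Lgals3 and -0.04 for Clu) and, for Lgals3, with normexp (-0.09). Lgals3 read 3.88, 4.03, 3.98 and 4.15, with tumor differences of 0.15 and 0.16, inside the scanner error. Clu read 4.79, 4.90, 4.76 and 5.18, with tumor differences of 0.11 and 0.42. The WT value of Clu depends on the processing, being 0.78 with normexp, which turned its difference of tumor differences from 0.31 to -0.35. Normexp started from the mean and background signals, so it differs from the processed intensity in detrending as well as in background. The Tlr3-deficient tumor difference of Clu stayed at 0.37 to 0.43 over the alternatives. Among other galectins tested in WT, Lgals9, an interferon-responsive galectin, was 4.62-fold higher with tumor, and Lgals7 at least 2.91-fold (0.24 on the log2 scale with normexp). Lgals9 read -0.48, 1.72, 1.38 and 1.59, so it was low only on the WT array without tumor. Without tumor it was higher in Tlr3-deficient than WT cells by 1.86, a difference that shares this low reading. Lgals9 has no value in columns 52 to 85, where repeat spots varied less in both comparisons. In Tlr3-deficient cells 0 of 6 galectins tested differed 2-fold with tumor.

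Between the genotypes without tumor, 0 of 10 members reached 2-fold, where 8.30% of 17491 tested genes did (5.92% higher, 2.38% lower). In columns 52 to 85 of the arrays, 44.4% of the genes past 2-fold in this comparison were higher, against 71.3% over all columns. The differences were 0.85 for Krt7, 0.74 for Krt19 and 0.96 for Itgb6, past the scanner error, and these kept their sign under the alternatives that could measure them. Krt19 has 1 spot, in columns 1 to 51, and no value in columns 52 to 85. In columns 1 to 51 the SD of this difference between spots of repeatedly printed probes was 0.346, wider than the scanner error. Krt8, Krt18, Lgals3 and Cdkn1a lay at 0.07 to 0.18 at their brightest probes, within that error, and each changed sign under at least 1 alternative. The second Krt8 probe gave 0.33, past the error. Cldn4 (-0.19), Sfn (-0.11) and Clu (-0.03) lay lower, within the error at their brightest probes. Cldn4 and Clu changed sign under at least 1 alternative, Clu to as much as 0.63. Sfn was lower at all 3 probes, and its other probes gave -0.29 and -0.30, past the error. Quantile normalization moved Krt7 to 1.06, past 2-fold. With tumor, 0 of 10 members reached 2-fold, where 5.56% of 18112 tested genes did (2.92% higher, 2.64% lower). The difference of the tumor differences, Tlr3-deficient minus WT, was -1.07 for Krt7, -1.01 for Itgb6 and -0.78 for Cdkn1a, and lay between -0.36 and 0.31 for the other 7. Krt7 and Itgb6 thus exceeded 2-fold, where 6.62% of 15677 genes well above background on all 4 arrays did, 4.50% lower and 2.12% higher. Both fell under 2-fold with median centring, normexp and the mean of all probes. This difference reuses all 4 arrays, and for Krt7 and Itgb6 it repeats the high value on the Tlr3-deficient array without tumor.

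Of the 10 members, 5 had their highest level in Tlr3-deficient cells without tumor and 6 their lowest in Tlr3-deficient cells with tumor. Among all genes well above background on all arrays, 22.5% had their highest level in the former and 29.3% their lowest in the latter. Of 18 further genes known from the transitional state, 11 were highest on the Tlr3-deficient array without tumor. With tumor in WT, Areg, an EGF receptor ligand, was higher by 1.29 and Msln (mesothelin) by 1.49, and 0 of 18 were at least 2-fold lower. With tumor in Tlr3-deficient cells, Ccn2 (connective tissue growth factor, a YAP and TGF-beta target) was lower by a log2 difference of -2.04 and Ccn1 by -1.04. Without tumor, Areg (1.31) and Msln (1.02, but 0.92 with median centring) were higher in Tlr3-deficient than WT cells. Areg read 3.57, 4.85, 4.88 and 4.26, and Msln 0.21, 1.69, 1.22 and 1.17, both lowest on the WT array without tumor. For both genes, the WT tumor difference and this genotype difference therefore share that low reading. Neither gene has a value in columns 52 to 85, where repeat spots varied less in both comparisons. Between the genotypes with tumor, Fhl2 was lower (-1.11) and Ier3 higher (1.04) in Tlr3-deficient cells, and normexp put both under 2-fold, as the mean of all probes did Fhl2 (-0.41 at the least over the alternatives). Msln is also a mesothelial marker.

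Markers of other cells moved over the same arrays. AT-I markers, all 11 above background, had a summed linear level of 326 in WT without tumor, 221 in WT with tumor, 468 in Tlr3-deficient without tumor and 281 in Tlr3-deficient with tumor. Of these 11, 10 were highest on the Tlr3-deficient array without tumor, as Krt7, Krt19 and Itgb6 were. So were 8 of 8 endothelial, 6 of 7 mesothelial and 6 of 8 fibroblast and pericyte markers. Krt7 and Itgb6 were lowest on the Tlr3-deficient array with tumor, but Krt19 and all 11 AT-I markers on the WT array with tumor. With tumor, 3 of 11 were at least 2-fold lower in WT (Rtkn2 at -1.55, Hopx at -1.11 and Ager at -1.01, the last 2 under 2-fold with quantile normalization, normexp and the deposited log2 table), and 6 of 11 in Tlr3-deficient cells (Rtkn2 at -1.82, Akap5 at -1.46 and Hopx at -1.19 among them), where Pdpn and Clic5 fell under 2-fold with normexp, and Clic5 with the mean of all probes too. Ager, the receptor that defines AT-I cells, had a difference of -0.69 there. Fibroblast and pericyte markers, 8 of 8 above background, summed to 30.3, 25.4, 52.003 and 23.8, and Col3a1 (-2.32), Col1a1 (-2.04) and Col1a2 (-1.60) were lower with tumor in Tlr3-deficient cells. Endothelial markers, 8 of 8 above background, summed to 43.5, 32.7, 57.4 and 44.8, with none past 2-fold with tumor and Pecam1 at -0.55 in both genotypes. AT-II markers summed to 3031, 2971, 2733 and 2602, and 0 of 14 differed 2-fold in any comparison. In a bulk sample, fewer cells of a type and less RNA per cell cannot be told apart, and the part of these cells in the values of Krt7, Krt19, Itgb6 and Ccn2 was not tested.

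Blood cell markers followed the tumor. All 7 pan-leukocyte markers passed 2-fold upward in both genotypes (Ptprc by 2.68 in WT and 3.24 in Tlr3-deficient cells), with a summed level of 1.63, 9.01, 1.51 and 8.58. Of 11 neutrophil markers, 10 were higher in each genotype, with S100a8 higher by 5.39 and 4.85. Of the neutrophil marker differences, 6 in WT and 4 in Tlr3-deficient cells are bounds. With normexp, Camp (0.85), Cxcr2 (0.69) and Mmp8 (0.94) fell under 2-fold in WT, and Csf3r and Cxcr2 in Tlr3-deficient cells. Alveolar macrophage markers summed to 9.88, 12.4, 7.35 and 17.2, and Marco was higher by 0.42 in WT and 1.39 in Tlr3-deficient cells. Their part in the values of Lgals3 and Clu was not tested. Mesothelial markers, 7 of 8 above background, summed to 3.14, 4.69, 5.20 and 4.35, with Upk3b at -0.06 and -0.55. In WT only Msln (1.49), which weighs heavily in this sum, passed 2-fold with tumor. The median mesothelial difference was -0.06 in WT and -0.26 in Tlr3-deficient cells, and 4 of 7 markers were lowest on the WT array with tumor. Club cell markers, 8 of 8 above background, summed to 1590, 1330, 1182 and 1193, and ciliated cell markers, 9 of 9, to 54.5, 80.3, 50.2 and 69.7, with Foxj1 at 0.58 and 0.27.

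**Figure D5:**
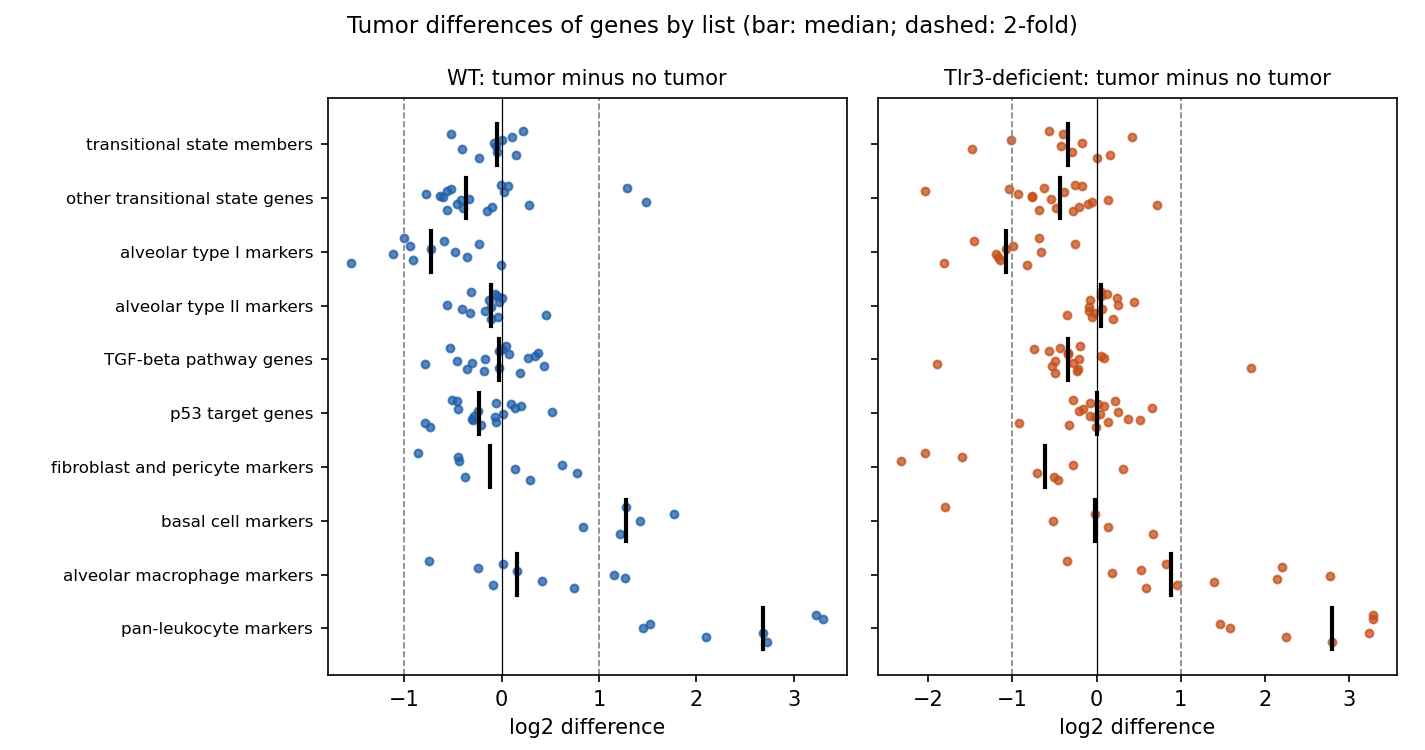
Log2 tumor difference of each tested gene in 10 gene lists, in WT (left, blue) and Tlr3-deficient cells (right, orange); black bars are list medians and dashed lines mark 2-fold. The 10 transitional genes have medians of -0.05 and -0.34, the AT-I markers -0.73 and -1.08, and the pan-leukocyte markers 2.68 and 2.79.

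Genes with the most similar profile were sought for Krt8, Cdkn1a and Cldn4 among 15667 other genes, as the smallest root mean square difference of gene-centred log2 levels over the 4 arrays. They were Ankrd27, Gm19337 and A530041M06Rik for Krt8 (0.010 to 0.011), Zfp711, Mex3d and Gm11568 for Cdkn1a (0.028 to 0.030), and Klhl2, S57425 and Tmem120a for Cldn4 (0.0058 to 0.013). The likeness covers 4 arrays only. Its distances are far below the scanner error of 0.204 to 0.240 for a difference of a member probe. Which genes rank first is therefore not sure. For Krt8, the second probe also gave another Tlr3-deficient tumor difference, -0.63 against -0.29.

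Promoters were read for the members from RefSeq on GRCm38.p6, as the 250 bases before each start. Of the 10 members, 8 had an entry, with 10 starts. The Krt7 promoter is shown because Krt7 varied most and because its window held more GC boxes than any other member's. Its window is chr15:101412153-101412402, plus strand, with the GC boxes (GGGCGG, on either strand) in capitals.
Krt7 promoter: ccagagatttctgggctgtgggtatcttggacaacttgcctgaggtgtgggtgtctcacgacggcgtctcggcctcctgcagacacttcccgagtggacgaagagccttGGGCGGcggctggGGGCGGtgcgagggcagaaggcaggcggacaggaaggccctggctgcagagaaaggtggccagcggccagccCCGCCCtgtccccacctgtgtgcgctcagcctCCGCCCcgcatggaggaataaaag
It held 4 GC boxes, and 32.7% of 32817 promoter windows of that length held at least 1. The Cldn4 window held 1 GC box and 2 matches to the AP-1 motif TGANTCA, which 6.75% of windows contain. Lgals3 had 1 GC box and the downstream start of Cdkn1a had 2. No member window held TATAAA (12.4% of all windows) or the SMAD palindrome GTCTAGAC (0.168%), both searched on both strands. A match is a description of letters only.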

How the data were processed

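Each array held 1 colour, Cy3, on the Agilent design 014868, and per the file headers was read with version 10.7.3.1 of Agilent Feature Extraction. The deposited processed intensity is background-subtracted and detrended within the array by that program, and is not scaled between arrays. The flags for signal well above background, saturation and outlier spots are those the authors deposited. The authors also deposited a table of log2 values, how it was made not being given in the sources used here. It correlated with the scanner values at r = 0.9995 to 0.9998, its column medians were 6.31, its direction was that of the scanner files, its genes were not centred, and it served only as an alternative.

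Here, log2 processed intensity was scaled to each array's 75th percentile, outlier spots were left out, spots of a probe were averaged, and a gene was given by its brightest probe. Of 41174 gene probes, 27668 were named by RefSeq accession on GRCm38, and the rest through a unique synonym or the file's own name. A difference was counted at 2-fold or more. Where a gene was well above background on only 1 of the arrays compared, the difference is a bound: the dim side is taken at its measured value or at that array's lowest signal above background, whichever is higher. With 1 array per group there is no test, and the number of arrays limits the precision. The 10 genes and the 21 gene lists were chosen with earlier results of these data known. Genes named are all members, those of pathway and family lists that differed 2-fold in the comparison described or else the brightest, and from cell type lists up to 3 with the largest difference and the defining marker. The calling steps were tested on simulated data. Alternatives were quantile normalization, median centring, normexp background correction with an offset of 50, the mean of all probes, a stricter filter, no filter, the deposited log2 table and, chosen after seeing the data, spots in columns 52 to 85 only. Tools were Python 3.11.15, numpy 2.4.6, pandas 2.3.3, R 4.3.3 and limma 3.58.1.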

Additional observations from a re-analysis of the deposited data

Results flagged for a closer look

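Cdkn1a stood out because its tumor difference ran in opposite directions in the genotypes, by 0.22 in WT and -0.57 in Tlr3-deficient cells, which differ by -0.78 on the log2 scale. The difference was not tested, since each group is 1 array. In columns 52 to 85 of the array the Tlr3-deficient difference was -0.57, and the WT one was -0.01 over the 3 spots usable on both arrays and 0.010 between the means of all usable spots, so its sign there is not settled.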

How the results depend on the processing

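Of 380 values of the 10 genes under alternatives, 348 kept their sign and 371 their side of 2-fold. The number of the 10 genes past 2-fold in Tlr3-deficient cells with tumor, 2 as reported, was 1 with normexp (Itgb6 at -0.92) and 1 with the mean of all probes (Itgb6 at -0.87). Between genotypes without tumor it was 0, and 1 with quantile normalization (Krt7 at 1.06). For the difference of tumor differences it was 2, and 0 with median centring, normexp and the mean of all probes. Itgb3 changed sign in columns 52 to 85, where another probe represents it, to -0.10 between genotypes without tumor and 0.041 for the difference of tumor differences. Genes past 2-fold in WT with tumor numbered 1289, but 593 with normexp, 749 with the stricter filter, 2884 with no filter and 401 in columns 52 to 85. In the same order of settings, Tlr3-deficient cells with tumor gave 1517 against 735, 909, 3010 and 624, genotypes without tumor 1452 against 746, 877, 3121 and 423, and genotypes with tumor 1007 against 436, 613, 2304 and 481. The difference of tumor differences gave 1038 against 4349 with no filter and 367 in columns 52 to 85. Of genes past 2-fold in WT with tumor, 78.4% were higher, against 66.3% with quantile normalization and 63.7% with median centring. For the difference of tumor differences the share was 31.98%, against 49.6% with median centring. Between genotypes without tumor it was 71.3%, against 44.4% in columns 52 to 85. Median centring moved the median of all genes to -0.15 in WT with tumor, -0.14 between genotypes without tumor and 0.17 for the difference of tumor differences. The cause of these changes was not tested. Normexp adds an offset, which shrinks differences of dim genes by construction, and it starts from signals that were not detrended. No paired analysis was possible because each group holds 1 array. Leaving out an array was not possible for the same reason. In columns 52 to 85 no value is given for Krt19, Cldn4, Lgals3 and Clu, which have no probe there.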
